A study of Danio rerio with 28 samples.

Results

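Tight junctions seal the gap between neighbouring epithelial cells. The 31 genes described here were chosen by symbol from claudin and other tight junction gene families. Their RNA was sequenced in the larval zebrafish gut with and without il22, the gene of the cytokine interleukin-22. These genes are the rows of the experiment 2 count table whose symbol starts with cldn, tjp, ocln, marveld, cgn or f11r. Their mean was at least 0.5 CPM (counts scaled to the total of the library) over its 20 libraries. Of 42 symbols with these beginnings among 15419 rows, 31 met the level. The last inside was cldn19 at 0.558 CPM and the first outside was cldn2 at 0.419 CPM. Experiment 1 had a row for 30 of them among 16134 rows, all but tjp2b, and 29 had enough counts there to be tested, all but tjp2b and cldna. The members comprise 19 claudins, 5 MARVEL domain proteins (oclna, oclnb, marveld1, marveld2b and marveld3), 4 scaffold genes (tjp2a, tjp2b, tjp3 and cgnb), 2 claudin domain genes (cldnd1a and cldnd1b) and the junctional adhesion molecule gene f11r.1. By their current names cldnh is cldn3c, cldnc is cldn3d and cldn8 is cldn8.1. A further 3 rows above the level are claudins by current name but carry clone names in the table (cldn8.2, cldn30 and cldn29), and they are outside the rule. No row of either experiment mapped to tjp1a, tjp1b, cgna, cgnl1, marveld2a or cldn18, so their levels are not known here.

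The study compared guts of larvae at 7 days post-fertilization, in 28 libraries that each pooled 10 to 15 dissected guts, with 4 libraries in each of 7 groups. Experiment 1 held wild type and il22 knockout larvae whose housing is not stated in the labels. Experiment 2 held wild type and knockout larvae under conventional rearing, wild type and knockout larvae raised germ-free, and knockout larvae that were co-housed, with no label saying with which fish. The labels do not name the knockout allele, and each p-value sets a difference between groups against the spread between pools of guts.

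Claudins are membrane proteins whose extracellular loops set which ions and solutes pass between cells, and some of them form pores while others form barriers. Occludin and tricellulin are MARVEL domain proteins of the same strands. The zonula occludens scaffolds (tjp genes) and cingulin tie the strands to the actin cytoskeleton, and in the intestine claudin-15 is known from mice as a sodium-permeable pore of the epithelium.

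Library totals were 30241961 to 37953666 counts in experiment 1 and 22263733 to 30997846 counts in experiment 2. il22 checked the labels in experiment 1, where it stood at 3.99 to 13.8 CPM in wild type and 0.154 to 1.91 CPM in the knockout. In experiment 2 il22 lay at 0 to 1.03 CPM in every library, with wild type and knockout overlapping, so it did not check the genotypes there. The 8 genes of the enterocyte list summed to 8448 to 13867 CPM per library, with vil1 at 1219 CPM or more. Of that list, fabp2 stood at 0.108 to 0.717 CPM and anxa2b at 0 to 0.0974 CPM. From conventional wild type to knockout, fabp1b.1 went from 811 to 1820 CPM and slc15a1b from 2516 to 1766 CPM in the mean. In experiment 1 the means went from 573 to 1416 CPM for fabp1b.1 and from 2823 to 1813 CPM for slc15a1b. In germ-free guts they went from 501 to 1228 CPM and from 2037 to 1317 CPM. Skeletal muscle genes summed to 741, 458 and 226 CPM in conventional wild type library 1, germ-free wild type library 2 and co-housed knockout library 2, and to 8.37 to 61.4 CPM in the other libraries. The replicates of a group differed by more than counting noise.

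The most abundant member was cldn15la, an intestinal claudin whose zebrafish reporter marks the gut epithelium. On the TPM scale, which accounts for gene length, it held 31.4% (germ-free wild type) to 62.2% (conventional knockout) of the members' sum. It ranked first and cldnc, a claudin-3 relative, ranked second among the members in each of the 7 groups, with no overlap between them. Behind them cldn15a and cldn15lb took the next ranks in 6 of the groups, and cldnh followed at rank 4 to 7. In conventional wild type their libraries overlapped, and the mean TPM values were 158 ± 23.8 (SD, n = 4) for cldn15a, 138 ± 14.4 for cldn15lb and 101 ± 21.1 for cldnh. In germ-free wild type they were apart, at 147 ± 14.5, 125 ± 6.75 and 59.8 ± 9.17 TPM, with cldnh in rank 7, and cldn15a did not overlap cldn15lb in the germ-free knockout or the knockout of experiment 1 either. At the low end cldna, cldnf, cldn5a and cldn19 stood below 2 TPM in the mean of each group.

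cldn15la was higher in the knockout than in wild type in conventional and in germ-free guts of experiment 2. In conventional wild type the 4 libraries stood at 355, 419, 410 and 389 CPM, and in the conventional knockout they stood at 1646, 1566, 1671 and 1265 CPM. The groups lay far apart, and the knockout mean was 3.91-fold the wild type mean (log2 fold change 1.97 ± 0.18, SE; adjusted p = 1.4e-07). Germ-free wild type had 372, 345, 333 and 293 CPM and the germ-free knockout 826, 947, 1255 and 620 CPM, again without overlap but with a wide spread in the knockout. The germ-free difference was 1.44 ± 0.17 on the log2 scale (adjusted p = 5.74e-06). The co-housed knockout had 808, 1331, 1133 and 951 CPM. All 4 of its libraries were above conventional wild type (log2 fold change 1.42 ± 0.17, adjusted p = 6.09e-06). No wild type was co-housed, so genotype and co-housing cannot be told apart in that comparison. In bulk tissue, more cells of a type and more RNA per cell cannot be told apart, so these values do not say whether single enterocytes differed.

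Experiment 1 did not show that difference. Its wild type libraries stood at 459, 388, 411 and 417 CPM for cldn15la and its knockout libraries at 497, 456, 452 and 409 CPM. The groups overlapped, and the log2 fold change was 0.12 ± 0.08 (95% interval -0.04 to 0.27; adjusted p = 0.305). The knockout effect in experiment 1 minus that in conventional guts of experiment 2 was itself past the threshold at -1.86 ± 0.13 (adjusted p = 5.16e-07). The experiments also differ in il22 level and count table, and housing in experiment 1 is unstated, so these cannot be told apart.

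Rearing moved cldn15la within the knockout. It was lower in the germ-free than in the conventional knockout by 0.75 ± 0.17 on the log2 scale (log2 fold change -0.75, adjusted p = 0.00373), with no overlap, while the same contrast in wild type was -0.23 ± 0.17 (adjusted p = 0.349). The test of the difference between these 2 effects did not pass (-0.53 ± 0.24, adjusted p = 0.321). Co-housed against conventional knockout gave -0.54 ± 0.17 (adjusted p = 0.0974), which passed only without co-housed library 2 (-0.69, adjusted p = 0.0341) and with DESeq2 (adjusted p = 0.0366). That library held 1331 CPM, the highest of its group, and is one of those with muscle transcripts.

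The share of cldn15la in the claudin pool was larger in the knockouts of experiment 2. Summed over the 19 claudins, TPM was 1397 ± 59.9 (SD, n = 4) in conventional wild type and 3341 ± 299 in the conventional knockout, and cldn15la made up 40.7% ± 2.79 and 68.0% ± 4.48 of it. The other 18 claudins together went from 829.2 ± 58.1 to 1059 ± 54.0 TPM, and their libraries did not overlap either. In the germ-free groups cldn15la took 39.9% ± 2.88 of claudin TPM in wild type and 61.1% ± 6.29 in the knockout, and in the co-housed knockout 64.9% ± 5.08. In experiment 1 the shares were 44.5% ± 3.87 and 49.6% ± 4.01 with overlapping libraries, and the claudin sums were 1346 ± 51.1 and 1273.4 ± 80.5 TPM.

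**Figure D1:**
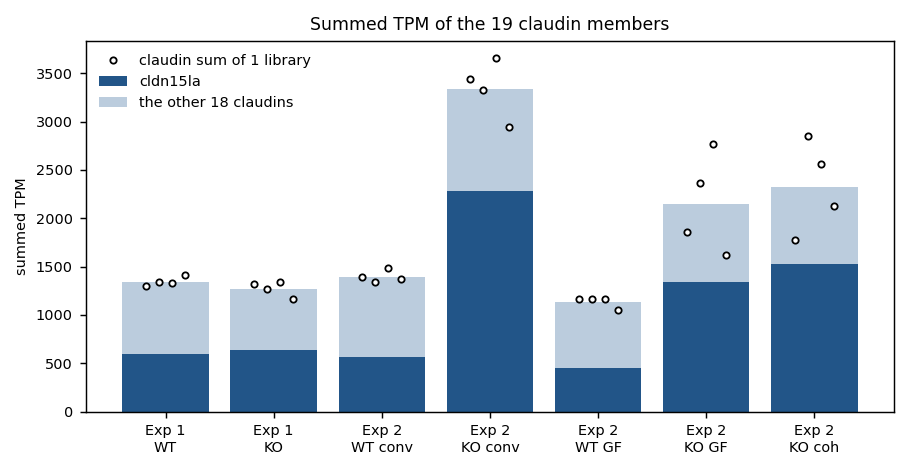
Summed TPM of the 19 claudin members in the 7 groups; bars are means of 4 libraries split into cldn15la (dark) and the other 18 claudins (light), and circles are the claudin sums of single libraries. The 3 knockout groups of experiment 2 stand at 2152 to 3341 TPM, and the other 4 groups at 1138 to 1397 TPM.

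Across the whole set, the knockout of experiment 2 moved more members up than down. Under conventional rearing 11 members were higher and 2 lower in the knockout, 13 of 31, while 36.2% of all genes tested were called, 17% higher and 19.1% lower. The members' median log2 fold change was 0.30 against -0.02 over all genes. In germ-free guts 8 were higher and 2 lower, with 26.8% of all genes called (13.5% higher, 13.3% lower) and a median of 0.29 against -0.0038. With limma on TPM the germ-free split was 8 higher and 0 lower, where that over all genes was 1902 higher and 937 lower (67.0% higher, against 50.4% with edgeR). Of the members, 13 had an unadjusted p under 0.05 in edgeR, and DESeq2 called 10. In experiment 1 the members split 6 higher and 4 lower of 29, with 33.1% of all genes called (16.1% higher, 17% lower) and a median of 0.01 against -0.01. The members' shares called (41.9%, 32.3% and 34.5%) are near or little above those of all genes, so the number of calls by itself is not a feature of the members.

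**Figure D2:**
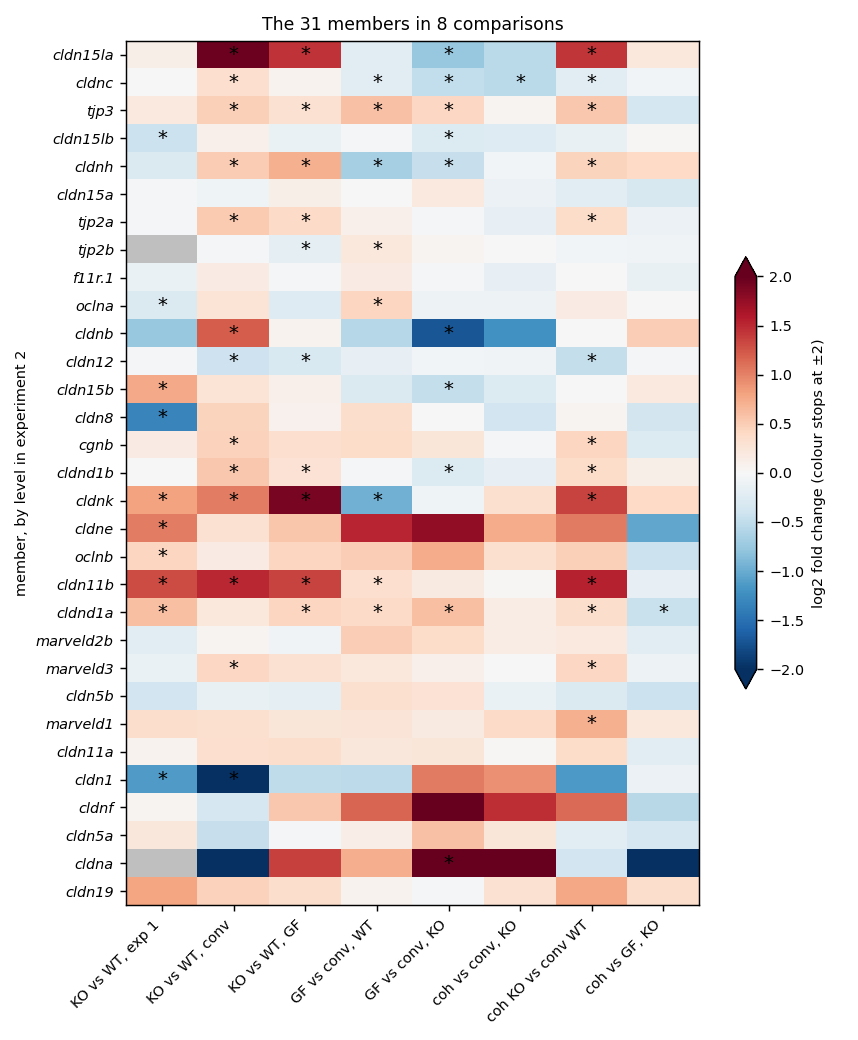
Log2 fold changes of the 31 members (rows, ordered by level in experiment 2) in 8 comparisons (columns); red is higher and blue lower in the first-named group, the colour stops at ±2, stars mark an adjusted p under 0.05 in edgeR's quasi-likelihood test, and grey was not tested. In the 3 columns of experiment 2 that set knockout against wild type, cldn15la, cldnk and cldn11b are red with a star, at 1.03 to 1.97.

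The conventional and the germ-free comparison share no library. Called in both were 8 members, 61.5% of the conventional and 80% of the germ-free calls, and all 8 had the same direction. Over all genes 51.8% and 69.9% of the calls were shared, 99.3% of them with the same direction. The 8 members were cldn15la, tjp3, cldnh, tjp2a, cldnd1b, cldnk and cldn11b higher, and cldn12 lower. The germ-free calls of tjp3 and cldnd1b were each lost without any 1 of 6 libraries. Experiment 1 and the conventional comparison, which also share no library, had 3 calls in common (cldnk, cldn11b and cldn1), 30% and 23.1% of their calls, with the same direction in each. The conventional call of cldn1 was lost without any 1 of 6 libraries. Over all genes tested in both experiments 54.4% and 49.5% of the calls were shared, 94.4% with the same direction. The count of members that did not overlap between genotypes was 12 in experiment 1, 10 under conventional and 10 under germ-free rearing, against 34.3%, 31.3% and 29.8% of all genes. With edgeR the members called in no comparison were cldn15a, f11r.1, marveld2b, cldn5b, cldn11a, cldnf, cldn5a and cldn19, 8 of the 29 tested in both experiments (27.6%, against 26.4% of 10372 genes tested in both). DESeq2 called 4 of these 8 in 1 comparison each: cldn15a in co-housed against germ-free knockout, marveld2b in germ-free against conventional wild type, cldnf in germ-free against conventional knockout, and f11r.1 in the difference between experiments.

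cldn11b and cldnk were higher in the knockout in experiment 1 and in conventional and germ-free guts of experiment 2. Both were also higher in the co-housed knockout than in conventional wild type. In mammals claudin-11 is a strand protein of myelin and of Sertoli cells, and in zebrafish cldnk marks myelinating glia. cldn11b stood at 4.42, 4.98, 4.43 and 3.66 CPM in wild type and at 10.4, 11.96, 11.6 and 9.07 CPM in the knockout of experiment 1. The genotypes lay well apart (log2 fold change 1.298 ± 0.13, adjusted p = 8.72e-05). Conventional wild type had 3.51, 3.69, 5.03 and 3.92 CPM and the conventional knockout 13.1, 11.5, 9.95 and 11.6 CPM. In germ-free guts wild type had 4.17, 5.45, 5.53 and 5.26 CPM and the germ-free knockout 13.9, 12.5, 12.3 and 13.4 CPM. The co-housed knockout had 11.9, 11.5, 10.9 and 12.5 CPM. Every knockout library of experiment 2 was above every wild type library, with log2 fold changes of 1.52 ± 0.12 under conventional and 1.35 ± 0.12 under germ-free rearing (adjusted p = 1.64e-08 and 6.94e-08). The effects of the 2 experiments differed by -0.23 ± 0.19 (95% interval -0.60 to 0.14, adjusted p = 0.501).

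cldnk was also higher in the knockout in each of these comparisons, but its order over the rearings was not that of cldn11b. From conventional to germ-free wild type, the mean of cldn11b went from 4.03 to 5.10 CPM and that of cldnk from 10.1 to 5.20 CPM. For cldnk, wild type of experiment 1 had 14.9, 12.2, 15.2 and 17.4 CPM and the knockout 24.2, 34.9, 24.3 and 20.5 CPM, without overlap (log2 fold change 0.80 ± 0.17, adjusted p = 0.00598). Conventional wild type had 11.9, 10.7, 10.7 and 6.92 CPM and the conventional knockout 17.96, 17.9, 19.8 and 26.6 CPM, also without overlap (1.03 ± 0.19, adjusted p = 0.000281). Germ-free, wild type had 5.44, 4.28, 6.24 and 4.84 CPM, the lowest group of experiment 2, and the germ-free knockout 15.6, 26.1, 16.4 and 19.3 CPM. There the log2 fold change was 1.90 ± 0.19 (adjusted p = 6.88e-07). The co-housed knockout had 28.99, 21.9, 28.4 and 23.1 CPM, all above conventional wild type (1.34 ± 0.19, adjusted p = 2.32e-05).

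In wild type cldnk fell without microbes by 0.96 on the log2 scale (log2 fold change -0.96 ± 0.19, adjusted p = 0.00228), while in the knockout germ-free and conventional libraries overlapped (-0.09 ± 0.18, adjusted p = 0.751). The test of that difference gave 0.87 ± 0.27 with an adjusted p of 0.123. It passed with DESeq2 (adjusted p = 0.0494) and without conventional wild type library 4 (0.98, adjusted p = 0.0192), whose 6.92 CPM was the lowest of its group. Of the glial and neuronal list, 8 of 9 genes were in the tables. Their sum spanned 15.2 to 41.0 CPM over the 28 libraries, and it overlapped between genotypes in experiment 1 (17.4 to 30.9 CPM in wild type, 15.2 to 32.1 in the knockout), under conventional rearing (30.1 to 32.01 and 27.9 to 31.4) and in germ-free guts (16.6 to 31.1 and 21.9 to 32.3). The myelin gene mpz had no count in any library. The glial gene plp1b stood at 0.217 to 0.793 CPM in wild type and 0.711 to 1.68 CPM in the knockout of experiment 1, overlapping at the edge (1.22 ± 0.42, adjusted p = 0.0502), and sox10 at 1.28 to 2.94 and 1.92 to 3.29 CPM (0.42 ± 0.29, adjusted p = 0.304). In experiment 2 the genotype difference of plp1b was -0.03 ± 0.50 in conventional and 0.49 ± 0.49 in germ-free guts (adjusted p = 0.972 and 0.515). Their part in the differences of cldnk and cldn11b was not tested.

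**Figure D3:**
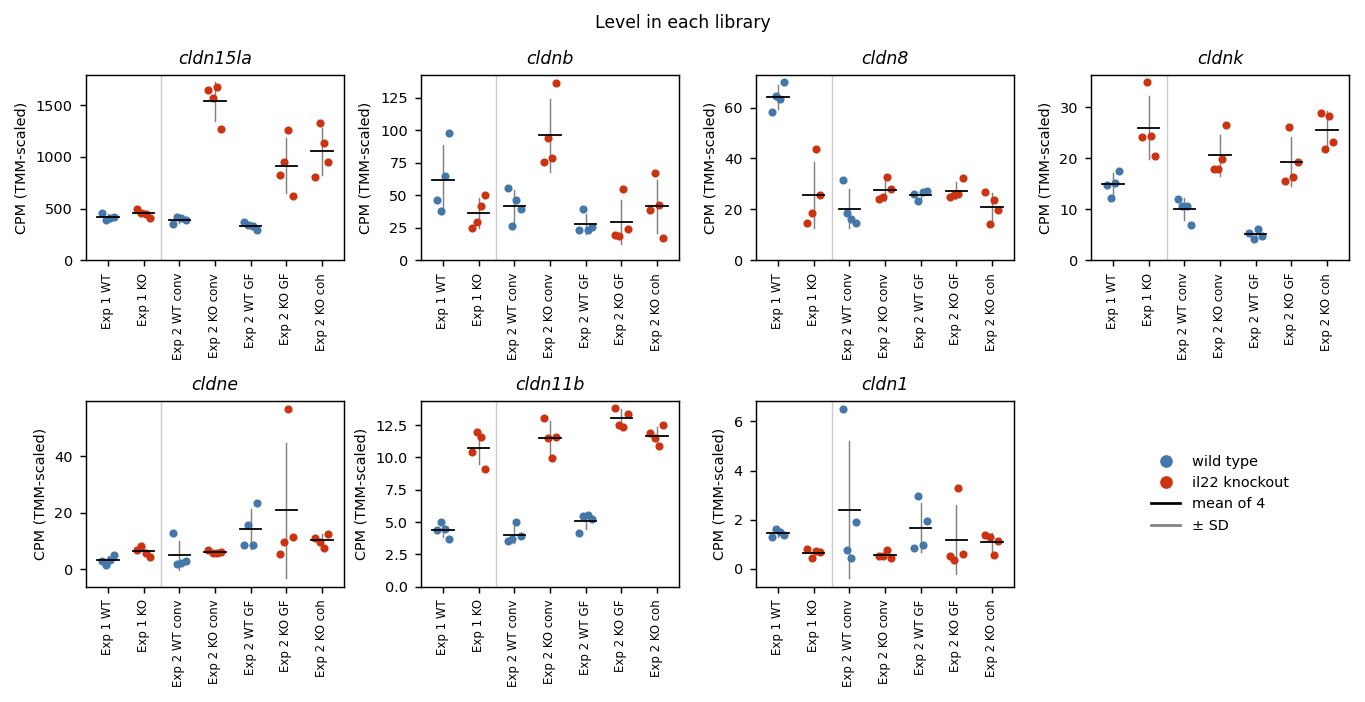
Level in CPM (TMM-scaled) of 7 members in each library by group; points are libraries (blue wild type, red knockout), black lines are means of 4 and grey lines ± SD, and the grey vertical line parts the 2 experiments, whose levels were scaled separately. Knockout points of cldn11b lie at 9.07 to 13.9 CPM and wild type points at 3.51 to 5.53 CPM.

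The 3 claudins cldnh, cldnc and cldnb are neighbours on chromosome 21 in the RefSeq gene order of assembly GRCz12tu, and all were higher in the conventional knockout. cldnh went from 139 ± 27.2 to 197 ± 16.0 CPM (SD over 4 libraries; log2 fold change 0.51 ± 0.13, adjusted p = 0.00535), and cldnc from 409 ± 15.1 to 519 ± 45.4 CPM (0.34 ± 0.08, adjusted p = 0.00156). Neither pair of groups overlapped. cldnb, which in zebrafish marks the migrating lateral line primordium among other epithelia, had 55.4, 26.1, 46.1 and 39.2 CPM in conventional wild type and 75.3, 93.8, 78.9 and 136 CPM in the conventional knockout. These did not overlap, and the log2 fold change was 1.20 ± 0.39 (adjusted p = 0.0233). The call was lost without conventional wild type library 2 (1.05, adjusted p = 0.0689) or conventional knockout library 4 (0.99, adjusted p = 0.0779).

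The same 3 genes were lower in the germ-free than in the conventional knockout. cldnb had 19.9, 18.5, 54.8 and 24.2 CPM in the germ-free knockout, all below the conventional knockout, and fell by 1.71 on the log2 scale (log2 fold change -1.71 ± 0.40, adjusted p = 0.00478). cldnc fell to 369 ± 11.8 CPM (-0.49 ± 0.08, adjusted p = 0.000176) and cldnh to 143 ± 14.8 CPM (-0.46 ± 0.13, adjusted p = 0.0135, lost without germ-free knockout library 4 at -0.41 and adjusted p = 0.0550). In wild type germ-free guts cldnh was at 87.5 ± 10.9 CPM, below conventional wild type (-0.66 ± 0.13, adjusted p = 0.00200). For cldnb the wild type contrast was not past the threshold: germ-free wild type had 23.7, 39.1, 23.5 and 25.7 CPM, which overlapped with conventional wild type (-0.57 ± 0.39, adjusted p = 0.298).

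Genotype did not separate cldnb in germ-free guts (0.07 ± 0.39, adjusted p = 0.929), whereas it did separate cldnh there (0.71 ± 0.13, adjusted p = 0.000471). The co-housed knockout had 38.8, 66.7, 42.8 and 17.4 CPM of cldnb, overlapping with conventional wild type and below the conventional knockout (log2 fold change against it -1.21 ± 0.39, adjusted p = 0.106; -1.56 and 0.0424 without co-housed library 2). In experiment 1 cldnb had 46.6, 38.1, 64.6 and 98.1 CPM in wild type and 25.0, 29.4, 41.6 and 50.1 CPM in the knockout. These overlapped (-0.76 ± 0.33, adjusted p = 0.121; 0.0361 with DESeq2), and the knockout effects of the 2 experiments differed by -1.98 ± 0.46 (adjusted p = 0.0143).

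Of the other claudin-15 relatives, cldn15a was called in no comparison by edgeR, while DESeq2 called it lower in the co-housed than in the germ-free knockout (-0.31, adjusted p = 0.0370). cldn15lb fell in the knockout of experiment 1 from 147 ± 8.55 to 109 ± 12.7 CPM (SD over 4 libraries; log2 fold change -0.43 ± 0.09, adjusted p = 0.00569), without overlap. In conventional guts of experiment 2 it stood at 157 ± 14.8 and 169 ± 5.59 CPM with overlapping libraries. cldn15b had the opposite sign to cldn15lb in experiment 1, where it went from 13.0 ± 2.23 to 21.8 ± 1.86 CPM (0.75 ± 0.13, adjusted p = 0.00192). Close paralogues of this kind, and likewise cldnh and cldnc, can share reads. The sources used here do not say how such reads were counted.

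cldn8, a relative of the claudin-8 barrier protein of mammalian kidney and colon, had the largest fall in experiment 1 among members with at least 5 CPM. Wild type had 58.4, 64.6, 63.2 and 70.1 CPM and the knockout 14.8, 18.6, 43.7 and 25.6 CPM. Every knockout library was below every wild type library, and the spread in the knockout was wide (log2 fold change -1.32 ± 0.31, adjusted p = 0.0127). In experiment 2 conventional wild type had 31.4, 18.6, 16.1 and 14.8 CPM and the conventional knockout 24.0, 24.9, 32.7 and 28.2 CPM. They overlapped only through conventional wild type library 1 (0.44 ± 0.21, adjusted p = 0.103; 0.0479 with limma on TPM). Without that library, the one with the most muscle transcripts, the difference was 0.73 with an adjusted p of 0.00252. Libraries of germ-free wild type held 26.0, 23.4, 26.8 and 27.0 CPM, those of the germ-free knockout 24.8, 25.8, 26.2 and 32.2 CPM and the co-housed knockout 26.7, 14.1, 23.9 and 19.7 CPM, all overlapping. The effects of the 2 experiments differed by -1.77 ± 0.41 (adjusted p = 0.0146). Markers of goblet cells, the mucus-secreting cells of the gut, also fell in the knockout of experiment 1, where clca1 went from 207 to 12.9 CPM (-4.00 ± 0.18, adjusted p = 1.31e-06) and agr2 from 74.9 to 41.3 CPM (-0.86 ± 0.10, adjusted p = 0.000229). The 2 of 5 listed goblet genes in the tables summed to 274 to 299 CPM in wild type and 48.9 to 65.5 CPM in the knockout, and to 79.97 to 93.0 and 72.7 to 91.0 CPM in conventional guts of experiment 2. Their part in the falls of experiment 1 was not tested.

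cldn12 is known from mammals as a claudin of calcium transport across the gut. It was the claudin that fell in the knockout in conventional and germ-free guts of experiment 2 and kept both calls without any single library. It stood at 53.1 ± 3.20 CPM in conventional wild type and 39.9 ± 2.81 CPM in the conventional knockout (SD over 4 libraries; log2 fold change -0.41 ± 0.08, adjusted p = 0.000770). In germ-free guts it stood at 47.5 ± 3.26 and 38.6 ± 4.86 CPM (-0.30 ± 0.08, adjusted p = 0.0113; 0.0951 with limma on TPM), and in the co-housed knockout at 38.0 ± 1.70 CPM. No conventional or germ-free knockout library reached its rearing's wild type libraries, and no co-housed knockout library reached conventional wild type. In experiment 1 it was 35.2 ± 1.47 and 34.3 ± 1.73 CPM (-0.04 ± 0.06, overlapping).

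The low claudins cldna, cldne, cldnf and cldn1 had libraries in experiment 2 that stood far from the others of their group. In zebrafish cldne is known from the skin, and in mice claudin-1 is needed for the skin barrier. cldne had 12.6, 1.78, 2.27 and 2.90 CPM in conventional wild type and 6.66, 5.77, 5.63 and 6.13 CPM in the conventional knockout. One wild type library exceeded the knockout and the other 3 were below it, so the groups overlapped (0.30 ± 0.69, adjusted p = 0.767). Without the 3 muscle libraries and germ-free knockout library 3, a set chosen after seeing the data, cldne passed as higher in the knockout (1.38, adjusted p = 0.0125). In germ-free guts wild type had 8.65, 15.7, 8.53 and 23.6 CPM, the germ-free knockout 5.25, 9.71, 56.6 and 11.5 CPM, and the co-housed knockout 11.1, 9.40, 7.55 and 12.5 CPM. The germ-free groups overlapped and germ-free knockout library 3 stood far above the rest. Germ-free against conventional wild type gave 1.52 ± 0.69 (adjusted p = 0.114), and 2.61 with an adjusted p of 0.0171 without conventional wild type library 1.

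In experiment 1 cldne was called higher in the knockout, with 2.80, 1.48, 3.23 and 4.91 CPM in wild type and 6.77, 8.16, 5.79 and 4.42 CPM in the knockout. The groups overlapped at their edge, and the log2 fold change was 1.02 ± 0.33 (adjusted p = 0.0406). The call was lost, with adjusted p-values of 0.0513 to 0.101, when any of wild type libraries 1 to 3 or knockout libraries 1 to 3 was left out. The periderm and skin list of 10 genes summed to 663 to 908 CPM in wild type and 1426 to 1827 CPM in the knockout of experiment 1, without overlap, while its defining gene krt5 stayed at or below 0.0729 CPM. That sum was carried by krt91 (532 to 1236 CPM in the mean) and ppl (264 to 381 CPM), evpla and agr1 were lower in the knockout, and the list's mean log2 CPM overlapped between genotypes (1.97 to 2.87 and 2.24 to 3.17). Its part in the difference of cldne was not tested.

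cldn1 fell in experiment 1, with 1.302, 1.60, 1.52 and 1.37 CPM in wild type and 0.8004, 0.433, 0.724 and 0.678 CPM in the knockout. The groups did not overlap (log2 fold change -1.13 ± 0.22, adjusted p = 0.00430). Of the skin list, evpla and agr1 fell there too (-1.12 and -1.27, adjusted p = 0.0188 and 0.00341), while krt91 and ppl rose. In conventional guts cldn1 had 6.49, 0.786, 0.453 and 1.92 CPM in wild type and 0.540, 0.539, 0.768 and 0.444 CPM in the knockout, which overlapped. The call there (-2.07 ± 0.78, adjusted p = 0.0461) rested on wild type library 1: without it the log2 fold change was -0.88 with an adjusted p of 0.356. It was also lost, at adjusted p-values from 0.0527, without wild type library 4 or any of the knockout libraries. Libraries of germ-free wild type had 0.834, 2.97, 0.987 and 1.95 CPM, the germ-free knockout 0.506, 0.355, 3.29 and 0.596 CPM and the co-housed knockout 1.38, 1.295, 0.555 and 1.12 CPM, all overlapping.

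The 2 libraries of experiment 2 highest in the skin keratins krt17 and cyt1 were high in some of these claudins. Conventional wild type library 1 and germ-free knockout library 3 had 95.1 and 76.4 CPM of krt17 and 215 and 138 CPM of cyt1. The other libraries of experiment 2 had at most 49.4 and 76.4 CPM. cldna stood at 1.46 and 7.65 CPM and cldnf at 1.04 and 4.89 CPM in these 2 libraries. The 1.04 CPM of cldnf was below the highest co-housed knockout library at 2.11 CPM. Germ-free wild type library 2, at 2.97 CPM of cldn1, had 21.1 CPM of krt17 and 34.5 CPM of cyt1. Germ-free wild type library 4, next in krt17 at 49.4 CPM, had 1.46 CPM of cldna and 2.19 CPM of cldnf. The whole skin list summed to 2435 CPM in conventional wild type library 1, the highest of experiment 2. In germ-free knockout library 3 it summed to 1673 CPM, within its group's range of 1499 to 1739 CPM. The list's mean log2 CPM was 5.29 and 4.47 in these 2 libraries. It was 2.75 to 3.85 in the other conventional wild type libraries and 2.35 to 3.26 in the other germ-free knockout libraries. cldna was called higher in the germ-free than in the conventional knockout, but the latter held 1 count of it over 4 libraries, and the call was lost without germ-free knockout library 3 (2.93, adjusted p = 0.335) and without conventional knockout library 1, 2 or 3 (adjusted p-values from 0.0519). The part of skin tissue in these values was not tested.

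**Figure D4:**
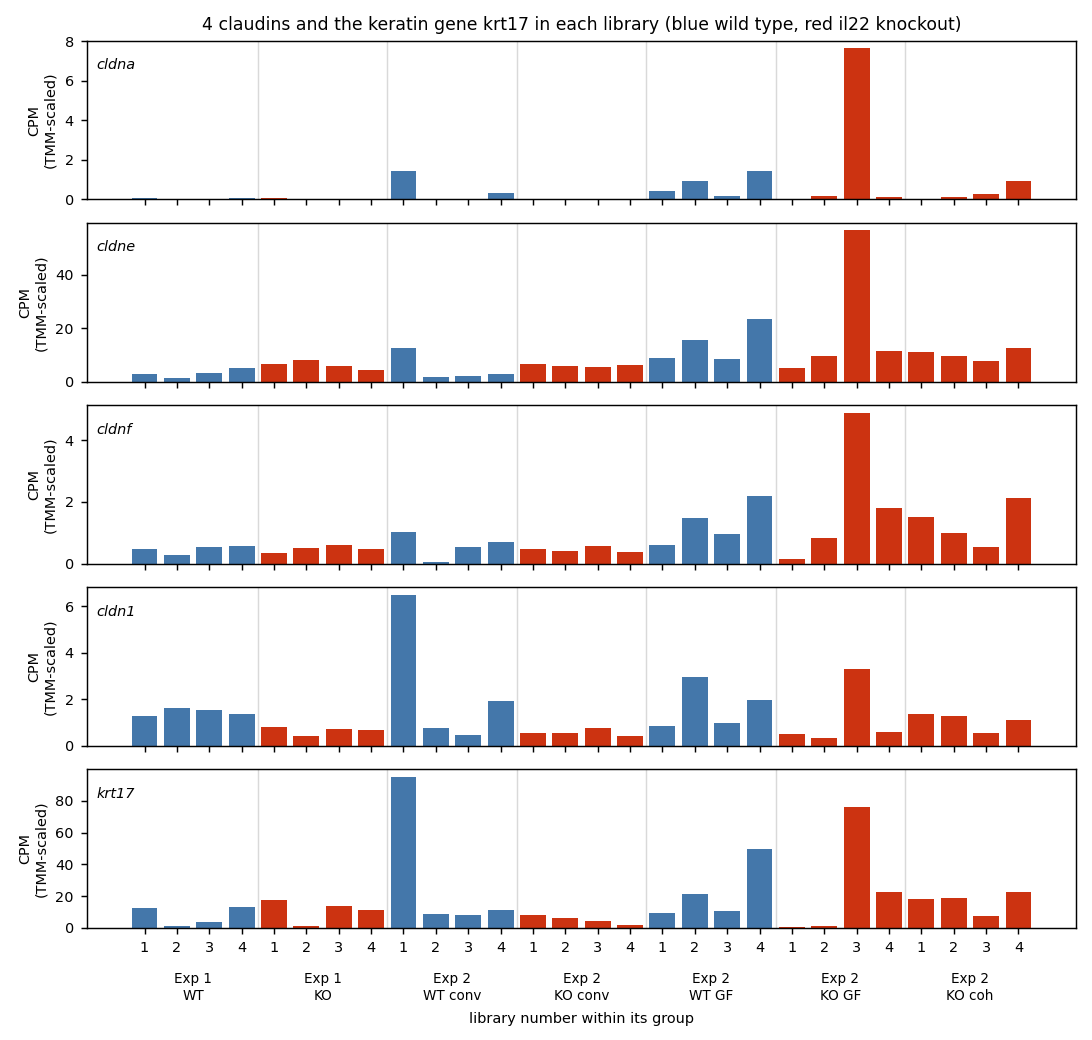
CPM (TMM-scaled) of cldna, cldne, cldnf, cldn1 and the keratin gene krt17 in each of the 28 libraries, grouped along the horizontal axis by experiment, genotype and rearing; each bar is 1 library (blue wild type, red knockout). Germ-free knockout library 3 holds the highest bar of cldna, cldne and cldnf (7.65, 56.6 and 4.89 CPM), and conventional wild type library 1 that of cldn1 and krt17 (6.49 and 95.1 CPM).

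The claudin-5 genes cldn5a and cldn5b were not called in any comparison by edgeR or DESeq2 with all libraries. Their mammalian counterpart seals the blood-brain barrier. cldn5b stood at 4.94 ± 0.338 CPM in conventional wild type and 4.46 ± 0.537 CPM in the conventional knockout (SD, n = 4). It passed as lower in the co-housed knockout than in conventional wild type without co-housed library 2 (-0.52, adjusted p = 0.0155). cldn11a and cldn19 were likewise uncalled with all libraries, at 1.21 ± 0.325 and 1.52 ± 0.151 CPM for cldn11a and 0.426 ± 0.217 and 0.594 ± 0.234 CPM for cldn19 in the same groups. Without conventional wild type library 1, cldn19 passed as higher in the co-housed knockout than in conventional wild type (1.19, adjusted p = 0.0497). The endothelium list of 11 genes summed to 164 to 214 CPM in conventional wild type and 199 to 282 CPM in the conventional knockout. In the co-housed knockout it summed to 266 to 314 CPM. Its part in the values of cldn5a and cldn5b was not tested.

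Among the scaffolds, tjp2a and tjp3, 2 zonula occludens genes, were higher in the knockout in conventional and in germ-free guts of experiment 2. tjp2a went from 74.9 ± 6.52 to 108 ± 4.47 CPM in conventional guts (SD over 4 libraries; log2 fold change 0.52 ± 0.07, adjusted p = 2.08e-05) and from 80.02 ± 1.29 to 104 ± 9.94 CPM in germ-free guts (0.38 ± 0.07, adjusted p = 0.000588). Neither comparison overlapped. tjp3 went from 109.5 ± 21.8 to 153 ± 4.90 CPM in conventional guts (0.48 ± 0.11, adjusted p = 0.00187) and from 164 ± 7.15 to 203 ± 13.5 CPM in germ-free guts (0.31 ± 0.11, adjusted p = 0.0391). The germ-free call of tjp3 was lost, at adjusted p-values of 0.0550 to 0.109, without any of germ-free wild type or knockout libraries 1 to 3.

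tjp3 also moved with rearing, and in the opposite direction to the claudins of chromosome 21. It was higher in germ-free than in conventional guts of wild type (0.58 ± 0.11, adjusted p = 0.00132) and of the knockout (0.41 ± 0.11, adjusted p = 0.00889), with no overlap in either. tjp2b was lower in the germ-free knockout than in germ-free wild type, at 82.5 ± 4.21 and 94.7 ± 6.94 CPM (-0.20 ± 0.07, adjusted p = 0.0290), and was lost without germ-free wild type library 1 or 4 or knockout library 1, 2 or 4 (adjusted p-values of 0.0530 to 0.0933) and with limma on TPM (adjusted p = 0.441). cgnb, the cingulin gene, was called in the conventional knockout (14.6 ± 3.75 to 20.2 ± 0.812 CPM, 0.47 ± 0.15, adjusted p = 0.0222) with overlap, and the call was lost without wild type library 2 or 3 or knockout library 2 (adjusted p-values of 0.0501 to 0.0691). In experiment 1 edgeR with TMM scaling called 0 of 3 scaffolds. tjp3 and cgnb were called higher with median-of-ratios scaling (adjusted p = 0.0472 and 0.0424) and with DESeq2 (0.0158 and 0.0312), and tjp3 without wild type library 4 (0.24, adjusted p = 0.0323). In that experiment the tjp2a row held only 3.21 to 3.91 CPM in wild type.

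Occludin genes had opposite signs in experiment 1. oclna stood at 91.5, 90.1, 87.2 and 92.2 CPM in wild type and at 83.5, 73.9, 70.6 and 68.4 CPM in the knockout, so every knockout library was lower (log2 fold change -0.28 ± 0.07, adjusted p = 0.0137). oclnb went from 6.95 ± 0.435 to 9.35 ± 0.857 CPM (SD, n = 4; 0.43 ± 0.09, adjusted p = 0.00743), also without overlap. In conventional guts oclna was 61.5 ± 7.495 and 74.04 ± 4.40 CPM (0.27 ± 0.12, adjusted p = 0.0801; 0.38 and 0.0163 without wild type library 4), and its effects in the 2 experiments differed by -0.56 ± 0.12 (adjusted p = 0.00750). Germ-free wild type had more oclna than conventional wild type (82.6 ± 8.33 CPM, 0.42 ± 0.12, adjusted p = 0.0132; 0.37 and 0.0540 without conventional wild type library 3). In germ-free guts the knockout was at 69.3 ± 13.8 CPM (-0.25 ± 0.12, adjusted p = 0.118), which passed as lower without its library 3 (-0.40, adjusted p = 0.00638).

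marveld1 was called higher in the co-housed knockout than in conventional wild type (2.43 ± 0.544 and 1.48 ± 0.210 CPM, 0.71 ± 0.22, adjusted p = 0.0174), and the call was lost without co-housed library 2 (0.58, adjusted p = 0.0665). marveld3 was called in the conventional knockout (5.67 ± 1.34 to 7.52 ± 0.193 CPM, 0.41 ± 0.14, adjusted p = 0.0308), with overlap, and leaving out any of wild type libraries 1 to 3 or knockout libraries 1, 3 and 4 gave adjusted p-values of 0.0503 to 0.0955. marveld2b, the tricellulin gene, stood at 6.09 ± 1.01 and 6.31 ± 1.44 CPM in conventional wild type and knockout. In germ-free wild type it stood at 8.54 ± 0.876 CPM, which edgeR did not call against conventional wild type (0.49 ± 0.18, adjusted p = 0.0595) and DESeq2 did (adjusted p = 0.0487), as did edgeR without conventional wild type library 4 (0.61, adjusted p = 0.0218). f11r.1, whose mammalian counterpart JAM-A helps place the junction, was not called, at 69.2 ± 6.96 and 77.6 ± 1.32 CPM (0.16 ± 0.08, adjusted p = 0.137). Without wild type library 4 it passed at 0.25 (adjusted p = 0.0263).

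The 2 claudin domain genes are members of the wider claudin superfamily. Both were called higher in the knockout in germ-free guts and in the co-housed knockout against conventional wild type, and they moved in opposite directions with germ-free rearing of the knockout. The germ-free call of cldnd1b was lost without any germ-free wild type library or germ-free knockout library 3 or 4 (adjusted p-values of 0.0544 to 0.130). That of cldnd1a in the co-housed knockout was lost without conventional wild type library 1 or co-housed library 2 or 4 (adjusted p-values of 0.0785 to 0.0872). cldnd1b went from 15.9 ± 1.21 to 23.1 ± 2.42 CPM in conventional guts (0.54 ± 0.10, adjusted p = 0.000331) without overlap. cldnd1a was higher in the germ-free than in the conventional knockout (9.85 ± 1.71 and 6.47 ± 0.475 CPM, 0.61 ± 0.12, adjusted p = 0.00122) and higher in the germ-free knockout than in germ-free wild type at 7.30 ± 0.332 CPM (0.43 ± 0.12, adjusted p = 0.0104). In experiment 1 it was called at 0.61 ± 0.18 (adjusted p = 0.0258), lost without wild type library 2 or knockout library 3 or 4 (adjusted p-values of 0.0605 to 0.0639).

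Germ-free rearing shifted single members in each genotype. In wild type 5 members were higher and 3 lower without microbes, 8 of 31, against 25.2% of all genes (12.1% higher, 13.2% lower), and 7 did not overlap against 17.1% of all genes. With limma on TPM the members split 1 higher and 4 lower, and under that setting the split over all genes was 665 higher and 1913 lower (25.8% higher, against 47.8% with edgeR). Kept without any single library were tjp3 (higher), cldnh and cldnk (lower). The calls of cldnc, tjp2b, oclna, cldn11b and cldnd1a were each lost without at least 1 library, with adjusted p-values of 0.0540 to 0.124. Leaving out conventional wild type library 4 raised the count to 12, the most of any library.

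In the knockout 3 members were higher and 7 lower without microbes, 10 of 31, against 27.2% of all genes (14% higher, 13.3% lower), while the median over the members was 0.10 against 0.01 over all genes, so the median and the balance of calls differ in sign. DESeq2 gave 6 higher and 7 lower, the added ones being cldne, cldnf and oclnb. Kept without any single library were cldn15la, cldnc and cldnb (lower) and tjp3 and cldnd1a (higher). 9 members did not overlap, against 33.5% of all genes. cldn15lb was lower (139 ± 9.38 against 169 ± 5.59 CPM, -0.28 ± 0.08, adjusted p = 0.0151), except without germ-free knockout library 4 (-0.23, adjusted p = 0.0632). cldn15b and cldnd1b were each lost without 5 and 6 of the 8 libraries (adjusted p-values of 0.0556 to 0.149).

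No member passed the test of a genotype effect that differs between germ-free and conventional rearing in edgeR (0 of 31, with 0.444% of all genes called). At an unadjusted p under 0.05 there were 6, and DESeq2 called 1, cldnk. oclna had the next smallest p (-0.52 ± 0.16, adjusted p = 0.131) and passed without conventional wild type library 4 or germ-free knockout library 3 (adjusted p-values of 0.0463 and 0.0215, between -0.67 and -0.63).

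Co-housing of the knockout left cldnc as the 1 member called against the conventional knockout, 1 of 31 with 2.59% of all genes called (1.5% higher, 1.09% lower). It had 491, 514, 487 and 585 CPM in the conventional and 392, 379, 353 and 298 CPM in the co-housed knockout. The groups did not overlap (log2 fold change -0.55 ± 0.08, adjusted p = 0.000944), and the call was kept without any single library of these groups. 6 members did not overlap, against 12.6% of all genes. DESeq2 called cldn15la and cldn15lb as well.

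Set against conventional wild type, the co-housed knockout had 11 members higher and 2 lower, 13 of 31, against 33.2% of all genes (16.1% higher, 17.1% lower), with 7 not overlapping against 26% of all genes. This comparison shares its wild type libraries with the conventional one. Values side by side, conventional then co-housed, were 1.97 and 1.42 for cldn15la, 1.03 and 1.34 for cldnk, 1.52 and 1.54 for cldn11b, 0.48 and 0.54 for tjp3, -0.41 and -0.48 for cldn12 and 1.20 and -0.01 for cldnb on the log2 scale. cldnc differed in sign, at 0.34 and -0.20. Its co-housed call (adjusted p = 0.0439) was lost without conventional wild type library 2, 3 or 4 or co-housed library 3 or 4 (adjusted p-values of 0.0748 to 0.166). Fitted on the compared groups alone, 7 members were called.

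Against the germ-free knockout the co-housed knockout differed in cldnd1a (7.19 ± 0.583 and 9.85 ± 1.71 CPM, -0.45 ± 0.12, adjusted p = 0.0308), 1 of 31 with 7.27% of all genes called (3.93% higher, 3.34% lower), and 3 members did not overlap against 15.3% of all genes. The call was lost without germ-free knockout library 1 or 4 or co-housed library 1, 2 or 3 (adjusted p-values of 0.0634 to 0.102). DESeq2 called 4.

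The knockout effects of the 2 experiments differed in 9 of 29 members, 1 with a higher and 8 with a lower value in experiment 1, against 9.92% of all genes (4.85% higher, 5.07% lower). The 8 were cldn15la, cldn15lb, cldnh, tjp2a, oclna, cldnb, cldn8 and cldnd1b, and all kept the call without any single library. cldnh was at 142 ± 18.2 and 116 ± 14.8 CPM in wild type and knockout of experiment 1, against its rise in experiment 2, a difference of -0.81 ± 0.19 (adjusted p = 0.0126). cldn12 was the 1 in the other direction (0.36 ± 0.10, adjusted p = 0.0237; adjusted p-values of 0.0516 to 0.0659 without 1 of 6 libraries: wild type 4 or knockout 2 of experiment 1, or conventional wild type 2 or 3 or conventional knockout 1 or 3). The difference for tjp2a rests on an experiment 1 row with 82 to 138 counts per library.

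**Figure D5:**
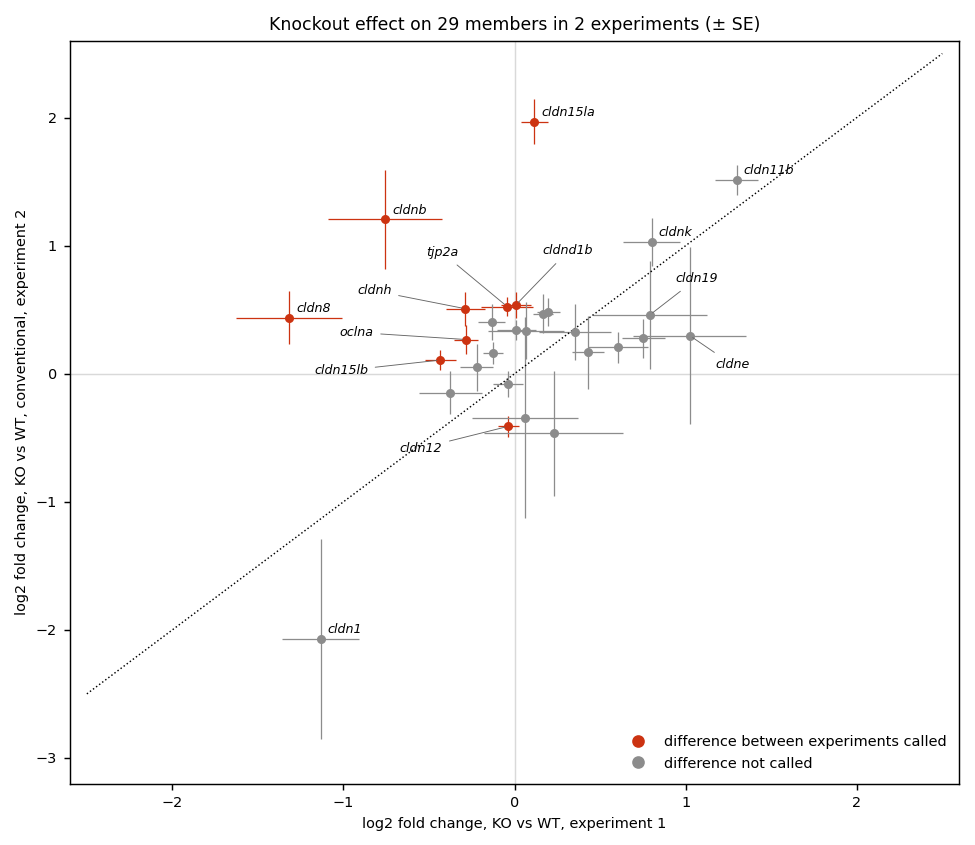
Log2 fold change of knockout against wild type in experiment 1 (horizontal axis) and in conventional guts of experiment 2 (vertical axis) for the 29 members tested in both, with bars of ± SE and a dotted line of equal change; red marks the 9 members whose effects differed at an adjusted p under 0.05. cldn15la lies at 0.12 and 1.97, cldn8 at -1.32 and 0.44, and cldn11b at 1.298 and 1.52, close to the line.

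Among 90 other junction, polarity and adhesion genes, 56 were tested in experiment 2 and 55 in experiment 1. In the conventional knockout 15 were higher and 2 lower, 17 of 56 or 30.4%, against 36.2% of all genes, with a median log2 fold change of 0.08 against -0.02 over all genes. crb3b, a Crumbs polarity gene, went from 2.98 ± 0.0628 to 9.03 ± 0.376 CPM (SD over 4 libraries; log2 fold change 1.60 ± 0.14, adjusted p = 6.08e-08), and it was also higher in germ-free guts (1.87 ± 0.14, adjusted p = 1.19e-08) and in experiment 1 (1.06 ± 0.28, adjusted p = 0.0174). lsr, which encodes a tricellular junction receptor, went from 104 ± 3.255 to 136 ± 5.65 CPM in conventional guts (0.39 ± 0.06, adjusted p = 6.82e-05) and was not called in experiment 1 (-0.04 ± 0.07, adjusted p = 0.679), and its effects in the 2 experiments differed by -0.44 ± 0.09 (adjusted p = 0.00495).

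In experiment 1 that list had 7 higher and 15 lower, 22 of 55 or 40%, against 33.1% of all genes (16.1% higher, 17% lower), and a median of -0.03 against -0.01. cxadr, an adhesion receptor of the junction, fell from 3.605 ± 0.488 to 1.27 ± 0.155 CPM (-1.50 ± 0.16, adjusted p = 0.000158), and jam2a, a junctional adhesion molecule gene, rose from 9.77 ± 1.89 to 19.8 ± 1.83 CPM (1.02 ± 0.13, adjusted p = 0.000474). In germ-free guts 5 were higher and 1 lower in the knockout (10.7%, against 26.8% of all genes), the lower one being cxadr again (-1.43 ± 0.31, adjusted p = 0.00160). Without microbes 6 were higher and 7 lower in wild type (23.2%, against 25.2% of all genes), among them cdh17, the liver-intestine cadherin (738 ± 93.7 to 504 ± 25.1 CPM, -0.55 ± 0.08, adjusted p = 0.000170). In the knockout 3 were higher and 11 lower (25%, against 27.2% of all genes), among them pard6b, a polarity gene (34.6 ± 4.55 to 20.9 ± 1.53 CPM, -0.73 ± 0.12, adjusted p = 0.000412).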

How the data were processed

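Gene expression was measured in 28 gut libraries. For each experiment the authors deposited raw read counts per gene and TPM, which is scaled for gene length and library total. The submitters' processing notes name FastQC 0.11.8 and the build danRer11, with aligner, counter, strand setting and annotation not given in the sources used here. Transcript identifiers of experiment 1 were named through RefSeq (15776 of 16134 rows). The counts were tested as whole tables with edgeR 4.0.16 in R 4.3.3 (TMM, filterByExpr by group, robust quasi-likelihood F test, Benjamini-Hochberg, threshold 0.05), experiment 1 alone and the 5 groups of experiment 2 together. The difference between experiments was fitted on experiment 1 and the conventional groups. SE was derived from the fold change and F statistic and is approximate, and intervals are ± 1.96 SE. Totals of 22263733 to 37953666 counts limit low genes most. Alternatives were DESeq2 1.42.0, limma 3.58.1 on log2(TPM + 1), median-of-ratios scaling, no count filter and other library sets. Each library of the compared groups was also left out in turn, and calls kept without any single library refer to these runs. The fits were tested on simulated counts with planted changes. Of 1.5-fold changes, 40.3% were recovered in counts simulated from experiment 1 and 37.3% in those from the conventional comparison. For 4-fold changes these were 97% and 95.5%. The simulations called 155 and 139 genes in all, where the data gave 3541 and 4070. With fewer genes changed, the adjustment of p was stricter there, so these shares are not recovery rates of the data. An uncalled small difference is still not shown to be absent.

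Members and gene lists were chosen with earlier results of these data known. Values in every library are given for members called in both experiment 1 and the conventional comparison, or called with an absolute log2 fold change of at least 1 and 5 CPM in the higher group, and for cldnc and oclna, chosen after their values were seen. Other members were named as the comparisons required. Of other junction genes the 4 of smallest p were eligible per comparison, and crb3b and lsr were carried into the other comparisons. Differences in level were tested only within an experiment. Where levels of both experiments are shown side by side, each was scaled separately, and no difference in level between them was tested.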

Additional observations from a re-analysis of the deposited data

Results flagged for a closer look

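Of 215 combinations of a member and a group, 16 held a library that stood apart from the other 3 by Dixon's ratio (above 0.829 for 4 libraries); chance flags about 1 in 20 groups. Germ-free knockout library 3 accounts for 5 of them: 54.8 CPM of cldnb, 56.6 of cldne, 3.29 of cldn1 and 7.65 of cldna were high, and 31.3 of cldn12 was low. Conventional wild type library 1 stood apart in cldne (12.6 CPM), and germ-free wild type library 2 in cldnb (39.1) and cldn5a (2.14). The others were cldn15lb in germ-free knockout 4 (125 CPM), tjp2a in conventional knockout 2 (101), cldnd1b in conventional wild type 4 (17.7), marveld1 in conventional knockout 3 (1.17), and in experiment 1 marveld2b in knockout 4 (6.23), cldn11a in wild type 2 (1.94) and cldna in knockout 1 (0.0616). cldna in conventional knockout 2 (0.0385 CPM) is a single count.

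The knockout effects of the 2 experiments differed for 9 members, as experiment 1 minus conventional experiment 2 on the log2 scale with edgeR's adjusted p: cldn15la -1.86 (5.16e-07), cldn15lb -0.55 (0.00984), cldnh -0.81 (0.0126), tjp2a -0.58 (0.0228), oclna -0.56 (0.00750), cldnb -1.98 (0.0143), cldn12 0.36 (0.0237), cldn8 -1.77 (0.0146) and cldnd1b -0.54 (0.0158).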

How the results depend on the processing

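No single member called changed sign under any alternative run, although the split of calls turned in germ-free against conventional wild type (5 higher and 3 lower, 1 and 4 with limma on TPM). Of 5215 values for single members, 4732 kept both their sign and their side of the threshold. A call was lost in 176 and gained in 86, and 221 changed sign while uncalled in both runs. The count of members called in germ-free against conventional wild type (8) was 5 with limma on TPM, 4 on the compared groups alone and 5 without the 3 libraries with muscle transcripts. Co-housed against conventional knockout (1) gave 3 with DESeq2, 2 on the compared groups alone, 3 without the 3 muscle libraries and 3 without these and germ-free knockout library 3, a setting chosen after seeing the data. Co-housed knockout against conventional wild type (13) gave 7 on the compared groups alone. Co-housed against germ-free knockout (1) gave 4 with DESeq2, 3 with the replicate block, 0 on the compared groups alone and 0 without the 4 libraries. The interaction (0) gave 1 with DESeq2. The cause was not tested; fewer libraries enter the fits on compared groups alone. Leaving out 1 library gave 8 to 11 calls in experiment 1, 10 to 15 in conventional and 7 to 9 in germ-free guts for genotype, 5 to 12 in wild type and 6 to 11 in the knockout for germ-free rearing, 1 to 3 for co-housed against conventional and 0 to 3 against germ-free knockout, 9 to 12 for co-housed knockout against wild type, 0 to 2 for the interaction and 8 to 13 for the difference between experiments. Replicate numbers did not pair libraries (9 of 44 same-numbered pairs correlated above 0.1, range -0.43 to 0.36), and the block cost 10 and added 6 calls of 306, among them cldnb in experiment 1 (-0.72, adjusted p = 0.00368). Counts under about 0.1 CPM, as for cldna, limit what folds can show.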
